A study of Homo sapiens with 9 samples.

Results

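Mitochondrial ribosomal proteins are the protein subunits of the mitoribosome, the ribosome inside mitochondria. They are described here as the protein-coding genes whose symbol begins with MRPL or MRPS followed by a digit. Of 41041 Ensembl identifiers measured, 115 carried such a symbol. Of these, 37 were not protein coding in GENCODE release 29 and were left out. The remaining 78 genes comprised 49 MRPL genes and 29 MRPS genes. All 78 passed the filter on low values, a mean FPKM of 1 across libraries, and so all were among the 12662 genes tested.

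Poly(A) RNA was sequenced from SW480, a long-established line from a human colorectal cancer. One group of 3 libraries received sulforaphane with 5-fluorouracil (SFN+5-FU), one group of 3 received sulforaphane alone at 25 µM (SFN), and 3 libraries were untreated (control). All 9 libraries came from cells held at 1% oxygen for 48 h, controls included, so none of the comparisons measures hypoxia itself. Sulforaphane is an isothiocyanate from cruciferous vegetables, and 5-fluorouracil is a pyrimidine analogue used in chemotherapy. The sources used here do not give the dose of 5-FU, nor that of SFN where it was combined, and no group of 5-FU alone was analysed here.

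The mitoribosome translates the small set of proteins that the mitochondrial genome encodes, all of them subunits of the respiratory chain or ATP synthase. Its RNAs are made inside mitochondria, whereas all of its proteins are encoded in the nucleus, made in the cytosol and imported. The small subunit reads the mRNA and the large subunit joins the amino acids. Many subunits have a counterpart in bacterial ribosomes, and others are found in mitochondria alone.

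FPKM counts fragments relative to transcript length and library total, so levels can be set side by side between genes. The library totals behind these values are unknown. A gene was called higher or lower at a Benjamini-Hochberg adjusted p under 0.05 in a limma fit of log2(FPKM + 1) over all tested genes, and every fold change below is on that scale, which understates the change of genes of low level. One SFN library, replicate 2, stood apart from its group. Across the tested genes its log2 values correlated at 0.993 with each of the 3 SFN+5-FU libraries, and at 0.963 and 0.968 with SFN replicates 1 and 3. Results that rest on this library are therefore given with and without it. The epithelial and colorectal marker list had 8 of 16 genes at a mean FPKM of at least 1 with SFN+5-FU, 10 with SFN and 10 in the control. Its summed FPKM was 1719 to 1732 with SFN+5-FU, 1785 to 2403 with SFN and 2602 to 2643 in the control. Most of each sum came from the keratins KRT8, KRT18 and KRT19, so it mainly reflects them. The part of this list in the results was not tested. The immune marker list had 3 of 6 genes at a mean FPKM of at least 1 with SFN+5-FU, 3 with SFN and 2 in the control, and it summed to 7.80 to 11.3 with SFN+5-FU, 5.48 to 10.7 with SFN and 4.92 to 5.46 in the control. Of this list PTPRC was at 0 in every library, and CD68 had FPKM of 8.96, 7.92 and 5.59 with SFN+5-FU, 2.05, 5.57 and 4.23 with SFN, and 0.60, 0.61 and 0.48 in the control; its part in the results was not tested. The endothelial and fibroblast lists summed to no more than 2.06 in any library.

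The sequences around the start sites of 5 genes that the results turn on are shown first. They are the MRPL and MRPS genes with the largest rise (MRPL47 and MRPS11), the gene that faces MRPS11 (MRPL46), the gene with the largest fall (MRPS6), and MRPL48, the other gene that fell with an entry in the promoter table. Each is the 300 bases from 250 before to 50 after the RefSeq start, on the coding strand of GRCh38.p14. Capitals mark a match to 1 of the 4 motifs described further on. MRPL47 is at chr3:179604589-179604888 on the minus strand, MRPS11 at chr15:88467458-88467757 on the plus strand, MRPL46 at chr15:88467339-88467638 on the minus strand, MRPS6 at chr21:34073328-34073627 on the plus strand and MRPL48 at chr11:73787624-73787923 on the plus strand.
MRPL47: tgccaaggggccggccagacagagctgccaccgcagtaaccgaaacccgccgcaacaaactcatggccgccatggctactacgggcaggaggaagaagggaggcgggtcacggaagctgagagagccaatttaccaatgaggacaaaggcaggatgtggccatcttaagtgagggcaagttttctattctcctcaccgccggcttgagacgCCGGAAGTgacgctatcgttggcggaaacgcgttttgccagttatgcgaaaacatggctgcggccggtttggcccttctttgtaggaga
MRPS11: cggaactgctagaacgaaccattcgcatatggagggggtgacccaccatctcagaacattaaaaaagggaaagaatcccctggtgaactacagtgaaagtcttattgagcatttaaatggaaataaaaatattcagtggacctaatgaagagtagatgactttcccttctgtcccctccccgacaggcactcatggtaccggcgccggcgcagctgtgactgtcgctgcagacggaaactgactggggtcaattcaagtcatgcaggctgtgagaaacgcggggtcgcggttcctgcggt
MRPL46: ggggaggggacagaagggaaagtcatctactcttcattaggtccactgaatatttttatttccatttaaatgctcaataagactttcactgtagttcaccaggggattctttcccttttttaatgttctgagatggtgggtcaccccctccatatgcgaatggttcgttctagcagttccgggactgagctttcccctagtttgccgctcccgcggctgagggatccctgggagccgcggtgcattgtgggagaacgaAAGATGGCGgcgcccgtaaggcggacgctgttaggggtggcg
MRPS6: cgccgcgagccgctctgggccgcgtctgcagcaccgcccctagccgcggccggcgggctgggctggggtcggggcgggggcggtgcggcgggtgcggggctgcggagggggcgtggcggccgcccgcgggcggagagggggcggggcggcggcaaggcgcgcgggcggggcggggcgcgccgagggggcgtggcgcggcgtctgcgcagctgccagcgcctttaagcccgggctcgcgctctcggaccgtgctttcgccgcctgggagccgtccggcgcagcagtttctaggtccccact
MRPL48: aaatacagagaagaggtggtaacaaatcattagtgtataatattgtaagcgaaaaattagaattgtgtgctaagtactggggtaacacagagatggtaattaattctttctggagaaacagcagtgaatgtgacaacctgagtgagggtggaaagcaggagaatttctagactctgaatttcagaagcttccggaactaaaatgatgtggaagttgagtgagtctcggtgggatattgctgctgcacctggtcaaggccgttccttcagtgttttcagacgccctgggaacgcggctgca

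With SFN+5-FU, 40 of 49 MRPL genes and 22 of 29 MRPS genes rose against the control, while 2 MRPL genes and 1 MRPS gene fell. Over all tested genes 38.3% were called higher and 28.0% lower. The median log2 fold change was 0.47 over the MRPL genes and 0.44 over the MRPS genes, against 0.10 over all tested genes. With SFN alone, 41 MRPL genes and 25 MRPS genes rose, and again 2 and 1 fell, where 27.5% of all tested genes were called higher and 22.5% lower. Those medians were 0.46 for both subunits, against 0.05 over all tested genes. Both comparisons use the same 3 control libraries, so they are not independent. When each library was corrected for GC content and transcript length, the MRPS median with SFN+5-FU was 0.25, and the other MRPL and MRPS medians stayed between 0.33 and 0.37. The medians over all tested genes were then 0.038 with SFN+5-FU and 0.026 with SFN.

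The summed FPKM of the 49 MRPL genes was 1351 ± 23.4 with SFN+5-FU, 1337 ± 18.7 with SFN and 946.8 ± 27.9 in the control (SD, n = 3 each). The MRPS sum was 725.1 ± 7.76 with SFN+5-FU, 757.1 ± 32.0 with SFN and 651.1 ± 6.56 in the control. Without MRPS6, which moved the other way and is described below, it was 696.4 ± 5.82 with SFN+5-FU, 705.9 ± 15.2 with SFN and 510.0 ± 6.81 in the control. In all 3 sums every treated library lay above every control library, and the SFN+5-FU and SFN libraries overlapped. In both MRPS sums that overlap came from SFN replicate 2, at 720.6 with MRPS6 and 688.6 without it, whereas SFN replicates 1 and 3 lay above all 3 SFN+5-FU libraries, at 780.4 and 770.3 with MRPS6 and 716.8 and 712.4 without it. In bulk RNA, fewer cells of a kind and less RNA per cell cannot be told apart.

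**Figure D1:**
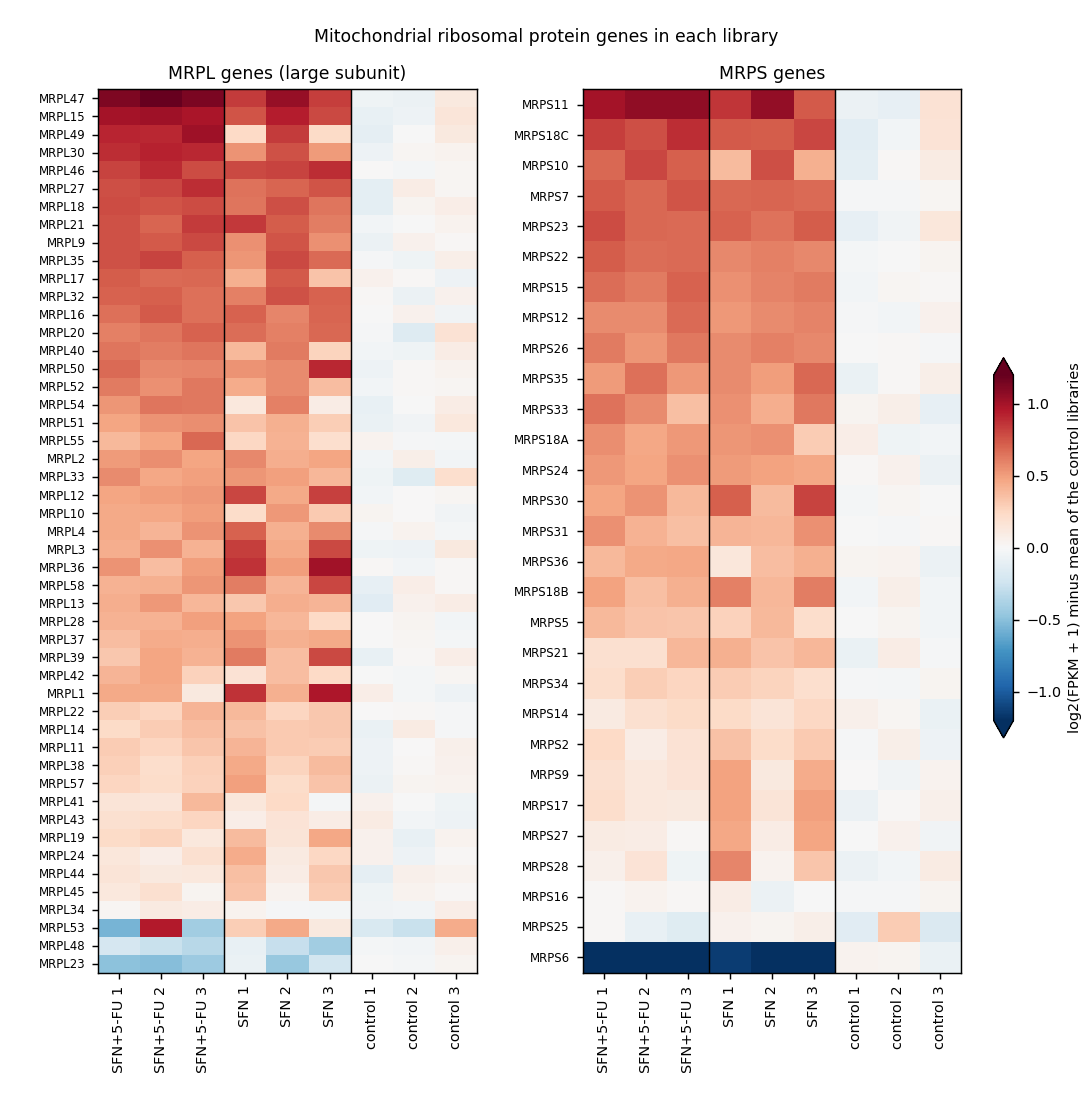
Each row is a gene and each column a library, with SFN+5-FU at the left, SFN in the middle and control at the right; colour is log2(FPKM + 1) minus the mean of the control libraries. Most MRPL and MRPS rows are red in all 6 treated libraries, MRPS6 is deep blue, and SFN replicate 2 looks more like the SFN+5-FU libraries than like SFN replicates 1 and 3 in genes such as MRPL49, MRPL54 and MRPL12.

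Of the 78 genes, 59 were called higher in both comparisons and 3 lower in both (MRPL23, MRPL48 and MRPS6). Both comparisons use the same controls, and the share of all tested genes called alike in both was not counted. The 59 are thus no measure of how far the family differs from other genes. Another 3 were called higher only with SFN+5-FU (MRPL41, MRPL43 and MRPL54), and 7 only with SFN (MRPL1, MRPL19, MRPL24, MRPL44, MRPS9, MRPS17 and MRPS27). A call in 1 comparison alone is no test that the comparisons differ, and none of these 10 genes was called between SFN+5-FU and SFN in the fit of all libraries. The remaining 6 were called in neither (MRPL34, MRPL45, MRPL53, MRPS16, MRPS25 and MRPS28). These groupings depended on SFN replicate 2: without it, MRPL1, MRPL19, MRPS9 and MRPS17 were also called higher with SFN+5-FU, and MRPL45 and MRPS28 were called higher with SFN. That library is in neither group of the SFN+5-FU comparison with the control, so the fold changes there stayed the same. For these 4 genes only the SE, estimated over all groups, became smaller. MRPL1, for example, stayed at 0.34 while its SE went from 0.145 to 0.0935.

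MRPL47, a protein of the large subunit with a bacterial counterpart, rose most. Its FPKM was 48.5, 52.9 and 48.8 with SFN+5-FU, 39.8, 45.9 and 39.4 with SFN, and 20.9, 20.7 and 23.8 in the control. All 6 treated libraries lay well above the controls, and of the SFN libraries replicate 2 came nearest to the SFN+5-FU group. The log2 fold change was 1.17 ± 0.08 with SFN+5-FU (SE; limma adjusted p = 1.2e-05) and 0.90 ± 0.08 with SFN (limma adjusted p = 5.5e-05).

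Other large-subunit genes followed at smaller sizes. MRPL15 had FPKM of 25.3, 25.7 and 25.0 with SFN+5-FU, 21.3, 24.3 and 21.8 with SFN, and 11.4, 11.7 and 13.6 in the control, a log2 fold change of 1.00 with SFN+5-FU and 0.83 with SFN. MRPL30 averaged 24.1 ± 0.309 FPKM with SFN+5-FU, 19.5 ± 2.00 with SFN and 12.4 ± 0.495 in the control (SD, n = 3). MRPL46, found only in mitochondrial ribosomes, was among the genes of lowest level and still rose, to 3.96 ± 0.208 FPKM with SFN+5-FU and 3.98 ± 0.170 with SFN, against 1.79 ± 0.0404 in the control. For all 3 genes the treated and control libraries did not overlap.

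MRPL49, another subunit specific to mitochondria, varied widely between the SFN libraries. Its FPKM was 57.0, 56.8 and 61.5 with SFN+5-FU, 35.3, 54.2 and 35.2 with SFN, and 27.6, 29.7 and 32.4 in the control. SFN replicate 2 lay near the SFN+5-FU libraries, while replicates 1 and 3 lay just above the controls. The log2 fold change was 0.95 ± 0.15 with SFN+5-FU (limma adjusted p = 0.00055) and 0.44 ± 0.15 with SFN (limma adjusted p = 0.037), and the SFN value was 0.23 without replicate 2 (limma adjusted p = 0.017). The SFN call was lost under 9 of 20 alternative settings. The exons of MRPL49 overlap those of FAU on the opposite strand, a ribosomal protein gene that averaged 267.1 FPKM with SFN+5-FU, 237.5 with SFN and 162.7 in the control, and the strand setting of the counting is not stated.

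MRPL12, the large-subunit protein that also binds mitochondrial RNA polymerase, had the highest level of the MRPL genes in every group. Its FPKM was 113.5, 116.1 and 117.3 with SFN+5-FU, 142.3, 112.0 and 144.9 with SFN, and 79.8, 81.8 and 82.8 in the control. Both treated groups lay above the controls, and SFN replicates 1 and 3 exceeded every SFN+5-FU library. The log2 fold change was 0.50 ± 0.09 with SFN+5-FU and 0.69 ± 0.09 with SFN. MRPL3, which lies near the centre where peptide bonds form, had a like pattern, with 55.3, 60.1 and 54.8 FPKM with SFN+5-FU, 72.9, 56.2 and 71.1 with SFN, and 39.2, 39.0 and 44.1 in the control. Its rise with SFN+5-FU, 0.47 on the log2 scale, was no longer called after the GC and length correction (limma adjusted p = 0.29).

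MRPL58, a peptidyl-tRNA hydrolase that became a ribosomal subunit, averaged 44.2 ± 2.03 FPKM with SFN+5-FU, 49.3 ± 6.88 with SFN and 31.8 ± 2.01 in the control and rose in both comparisons (SD, n = 3). MRPL20 rose to 27.6 ± 0.948 FPKM with SFN+5-FU and 27.6 ± 0.812 with SFN, against 17.3 ± 2.08 in the control. Genes of high level were not all changed alike. MRPL41, second in level among the MRPL genes, had FPKM of 82.0, 81.5 and 96.4 with SFN+5-FU, 80.8, 86.7 and 72.4 with SFN, and 76.1, 73.5 and 71.1 in the control. Its SFN and control libraries overlapped, and its call with SFN+5-FU, at a log2 fold change of 0.23 (limma adjusted p = 0.042), was lost under 11 of 20 alternative settings. MRPL51, specific to mitochondria, rose to 78.9 ± 2.20 FPKM with SFN+5-FU and 70.1 ± 3.31 with SFN, against 54.7 ± 4.29 in the control. MRPL42, the lowest of the MRPL genes over all libraries, rose to 3.08 ± 0.288 FPKM with SFN+5-FU and 2.74 ± 0.254 with SFN, against 2.12 ± 0.0503 in the control, and its SFN call was lost under 3 of 19 settings. MRPL44, whose protein has a ribonuclease III-like fold, had a log2 fold change of 0.13 with SFN+5-FU, which was not called, and 0.26 with SFN, a call lost under 12 of 20 settings.

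**Figure D2:**
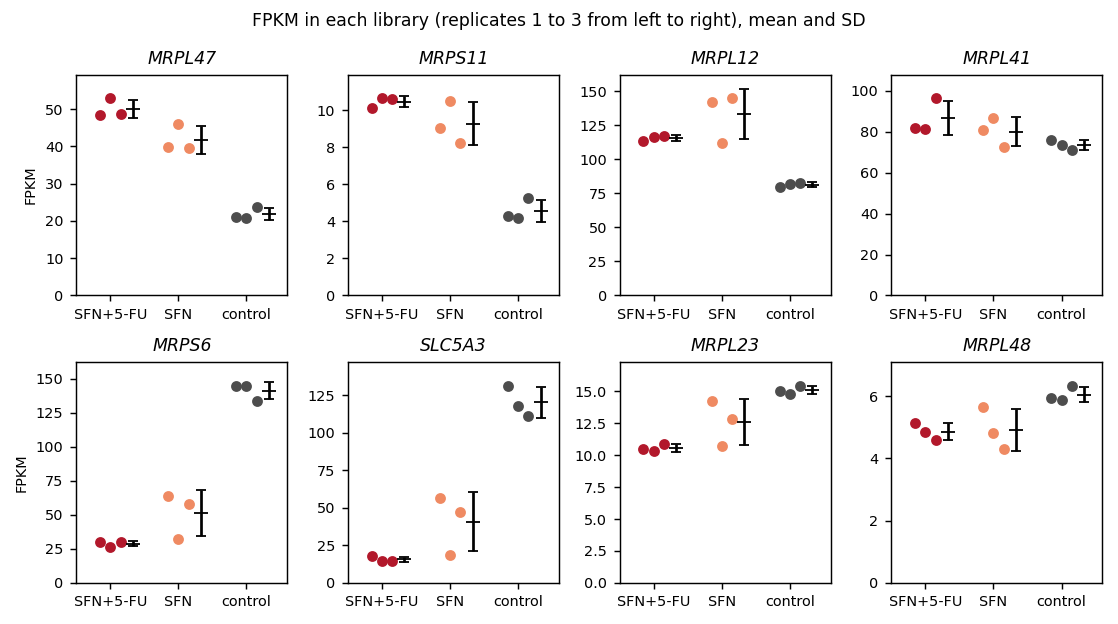
FPKM of 7 mitochondrial ribosomal protein genes and SLC5A3 in each library, with SFN+5-FU at the left, SFN in the middle and control at the right of each panel; points are libraries and the bar beside them is the mean with SD. MRPL47, MRPS11 and MRPL12 are above the control in all 6 treated libraries, and MRPS6 and SLC5A3 are below it, lowest with SFN+5-FU and in SFN replicate 2.

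Among the MRPS genes, MRPS11, a protein of the small subunit's platform, rose most. Its FPKM was 10.1, 10.7 and 10.6 with SFN+5-FU, 9.05, 10.5 and 8.25 with SFN, and 4.29, 4.19 and 5.26 in the control. Every treated library was well above every control library. The log2 fold change was 1.04 ± 0.10 with SFN+5-FU (limma adjusted p = 4.2e-05) and 0.88 ± 0.10 with SFN (limma adjusted p = 0.00017). MRPS11 and MRPL46 lie head to head on chromosome 15, with promoter windows that share 181 bases.

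MRPS7, one of the first proteins to bind the small-subunit RNA in bacteria, had the smallest SE of the 78 genes. Its FPKM was 34.2, 33.2 and 34.7 with SFN+5-FU, 33.0, 33.3 and 32.9 with SFN, and 19.99, 19.9 and 20.5 in the control. The groups of treated libraries lay within 2 FPKM of each other and far from the controls, a log2 fold change of 0.73 ± 0.05 with SFN+5-FU and 0.69 ± 0.05 with SFN. MRPS12, a protein of the decoding centre, rose to 53.2 ± 2.47 FPKM with SFN+5-FU and 51.4 ± 1.38 with SFN, against 34.6 ± 1.04 in the control (SD, n = 3). MRPS10 and MRPS23 also rose in both comparisons, by 0.74 and 0.72 with SFN+5-FU and by 0.53 and 0.69 with SFN on the log2 scale.

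The 3 MRPS18 genes are paralogs related to 1 bacterial protein. MRPS18C averaged 6.17 ± 0.281 FPKM with SFN+5-FU, 5.78 ± 0.197 with SFN and 3.04 ± 0.426 in the control, and rose by 0.83 with SFN+5-FU and 0.75 with SFN on the log2 scale. MRPS18A averaged 32.8 ± 1.10 with SFN+5-FU, 31.6 ± 3.06 with SFN and 22.6 ± 1.18 in the control, and MRPS18B averaged 49.4 ± 2.12, 53.7 ± 4.41 and 36.6 ± 1.57 FPKM in those groups. All 3 paralogs rose in both comparisons, with MRPS18C the lowest in level in every group. Symbols do not always give the place in the ribosome. MRPS18A and MRPS30 carry large-subunit protein names among their RefSeq synonyms, and MRPS36 is listed in RefSeq as KGD4, a component of the oxoglutarate dehydrogenase complex. MRPS36 rose as well, to 5.53 ± 0.192 FPKM with SFN+5-FU and 5.01 ± 0.624 with SFN, against 3.83 ± 0.215 in the control. The GC and length correction ended both calls and turned their direction, with log2 fold changes of -0.01 with SFN+5-FU (limma adjusted p = 0.92) and -0.04 with SFN (limma adjusted p = 0.70).

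MRPS34 and MRPS2, of high level, rose less. MRPS34 averaged 79.0 ± 2.21 FPKM with SFN+5-FU, 79.2 ± 2.96 with SFN and 66.1 ± 1.26 in the control, a log2 fold change of 0.25 with SFN+5-FU and 0.26 with SFN, and both calls were lost under quantile normalization. MRPS2 averaged 61.2 ± 3.24, 67.0 ± 3.06 and 54.4 ± 2.67 FPKM in those groups, and its call with SFN+5-FU was lost under 10 of 20 settings. Of the genes of lowest level, MRPS25 averaged 2.57 ± 0.199 FPKM with SFN+5-FU, 2.90 ± 0.0400 with SFN and 2.81 ± 0.741 in the control and was not called. MRPS27, a pentatricopeptide repeat protein, averaged 3.48 ± 0.142 FPKM with SFN+5-FU, 4.46 ± 0.785 with SFN and 3.27 ± 0.137 in the control, and its call with SFN was lost under 9 of 19 settings. MRPS33 rose to 5.03 ± 0.620 FPKM with SFN+5-FU and 5.08 ± 0.416 with SFN, against 3.18 ± 0.255 in the control.

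MRPS6, a small-subunit protein with a bacterial counterpart, went against the family. Its FPKM was 29.7, 26.4 and 29.8 with SFN+5-FU, 63.6, 32.0 and 57.8 with SFN, and 145.0, 144.7 and 133.8 in the control. All 6 treated libraries were far below the controls, the SFN+5-FU libraries were the lowest, and SFN replicate 2 lay next to them. The log2 fold change was -2.26 ± 0.21 with SFN+5-FU (limma adjusted p = 3.5e-05) and -1.51 ± 0.21 with SFN (limma adjusted p = 0.00046). In the control, MRPS6 had the highest level of all 78 genes, whereas it ranked 26 with SFN+5-FU and 11 with SFN. Its share of the summed FPKM of the MRPS genes was 3.68 to 4.10% with SFN+5-FU, 4.44 to 8.15% with SFN and 20.7 to 22.4% in the control.

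MRPS6 shares exons on the same strand with SLC5A3, the sodium/myo-inositol cotransporter, and the promoter windows of both genes are the same 300 bases, printed above under MRPS6. The FPKM of SLC5A3 was 17.6, 14.8 and 14.5 with SFN+5-FU, 56.4, 18.5 and 47.3 with SFN, and 131.5, 117.7 and 111.5 in the control. SLC5A3 was thus low in the same libraries as MRPS6, with SFN replicate 2 again beside the SFN+5-FU libraries. Its log2 fold change was -2.87 ± 0.33 with SFN+5-FU (limma adjusted p = 9.8e-05) and -1.68 ± 0.33 with SFN (limma adjusted p = 0.0028). How the authors' estimates divided fragments from the shared exons is not stated, so the values of both genes are uncertain to that extent. In all, 8 of the 78 genes had such a same-strand exon overlap with a gene at a mean FPKM of at least 1. On the opposite strand 19 had one, which matters because the strand setting of the counting is not stated. Among them is MRPL47 with ACTL6A, which averaged 42.3 FPKM with SFN+5-FU, 40.3 with SFN and 31.4 in the control. Others are MRPS7, MRPS12 and MRPL51, the last with NCAPD2, which was called lower with SFN+5-FU.

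The other 2 genes that fell did so by far less. MRPL23, a protein at the exit of the tunnel through which the new chain leaves, had FPKM of 10.5, 10.3 and 10.9 with SFN+5-FU, 14.3, 10.7 and 12.8 with SFN, and 15.1, 14.8 and 15.5 in the control. The SFN+5-FU libraries lay below all controls, and so did the SFN libraries, of which replicate 1 came close to them. The log2 fold change was -0.48 ± 0.09 with SFN+5-FU (limma adjusted p = 0.0016) and -0.25 ± 0.09 with SFN (limma adjusted p = 0.046). MRPL48 had FPKM of 5.12, 4.86 and 4.60 with SFN+5-FU, 5.64, 4.81 and 4.29 with SFN, and 5.93, 5.88 and 6.34 in the control, a log2 fold change of -0.27 ± 0.09 with SFN+5-FU (limma adjusted p = 0.026) and -0.26 ± 0.09 with SFN (limma adjusted p = 0.039). The SFN calls of both genes were lost when any 1 library other than SFN replicate 1 was left out, and without SFN replicate 2 their limma adjusted p was 0.0572 for MRPL23 and 0.0502 for MRPL48. For SFN+5-FU, the MRPL48 call was lost without any 1 of the 3 control libraries or of SFN+5-FU replicates 2 and 3.

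MRPL53 varied most between libraries. Its FPKM was 9.72, 29.5 and 10.8 with SFN+5-FU, 18.3, 20.6 and 16.1 with SFN, and 12.9, 12.1 and 20.6 in the control, so SFN+5-FU replicate 2 stood far above the other SFN+5-FU libraries and all groups overlapped. Its exons overlap those of CCDC142 on the same strand. The SE of its log2 fold change, 0.36, was the largest of all 78 genes.

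The subunits were also split by the kind of newer protein name among their RefSeq synonyms, which is only a rough guide to origin. MRPS18A and MRPS18B, related to a bacterial protein, carry mitochondrial names (mL66 and mS40) and are counted there. Of 44 with a universal or bacterial name, 35 rose and 2 fell with SFN+5-FU, and 40 rose and 2 fell with SFN. Of 31 with a mitochondrial name, 25 rose and 1 fell with SFN+5-FU, and 24 rose and 1 fell with SFN. Over all tested genes 38.3% were called higher and 28.0% lower with SFN+5-FU, and 27.5% higher and 22.5% lower with SFN. The median log2 fold changes were 0.49 and 0.44 with SFN+5-FU and 0.51 and 0.44 with SFN, for the universal or bacterial and the mitochondrial names in that order. The 3 genes for which no such name was found among the synonyms (MRPS24, MRPS28 and MRPS36) are not counted here.

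No MRPL or MRPS gene was called between SFN+5-FU and SFN when all 9 libraries entered the fit. The limma fit called 1 of 12662 genes, so the background was 0% higher and 0.00790% lower, while 10 MRPL genes, 3 MRPS genes and 3982 genes in all had an unadjusted p under 0.05. The lowest limma adjusted p among the 78 genes was 0.13. The median log2 fold change was 0.02 over the MRPL genes and 0.00 over the MRPS genes, against 0.03 over all tested genes. With limma's library weights, 15 MRPL and 5 MRPS genes were called higher and 12 and 8 lower. In that fit 7432 of the 12662 tested genes were called, 4225 higher and 3207 lower, so such calls were common among all genes.

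Without SFN replicate 2, the picture of this comparison was different, although it then rests on 2 SFN libraries. That library was singled out for its likeness to the SFN+5-FU group, so leaving it out by itself favours a larger difference. The calls and adjusted p below carry that choice and are given as description. Of the MRPL genes 12 were called higher and 14 lower, and of the MRPS genes 2 were higher and 8 lower, where 29.8% of all tested genes were called higher and 21.4% lower. MRPL49 had the largest difference upward, with 57.0, 56.8 and 61.5 FPKM with SFN+5-FU, against 35.3 and 35.2 with SFN, a log2 fold change of 0.71 ± 0.07 (limma adjusted p = 8.0e-05). MRPL54 followed at 0.49, MRPL30 at 0.38, MRPS10 at 0.33 and MRPL47 at 0.33. On the lower side MRPS6 stood at -1.06 ± 0.07 (limma adjusted p = 1.9e-05). MRPL1, a large-subunit protein, had 10.1, 10.1 and 7.79 FPKM with SFN+5-FU, against 13.8 and 14.8 with SFN, a log2 fold change of -0.57. MRPL36, MRPS28 and MRPS27 followed at -0.47, -0.40 and -0.40, then MRPL3 and MRPS17 at -0.34 each, MRPL23 at -0.33 and MRPL12 at -0.31. The medians of both gene sets stayed near 0, at -0.01 for the MRPL and -0.02 for the MRPS genes, with genes called in both directions.

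**Figure D3:**
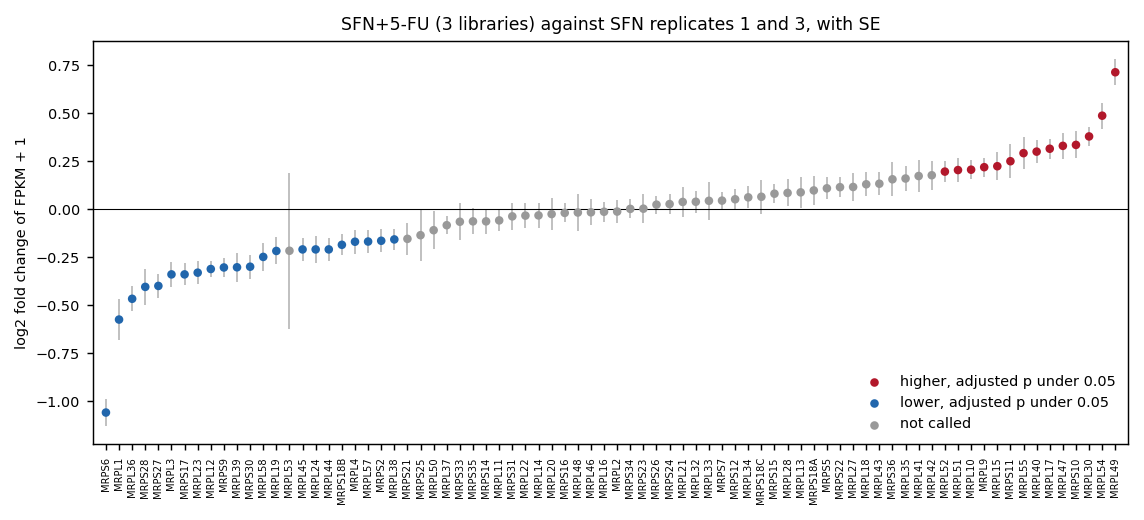
Log2 fold change of FPKM + 1 between SFN+5-FU (3 libraries) and SFN replicates 1 and 3, for the 78 genes in rising order; bars are SE, red and blue points are genes called higher and lower. The points run from -1.06 for MRPS6 to 0.71 for MRPL49, with 22 called lower and 14 called higher.

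In the comparison of SFN with the control, leaving out SFN replicate 2 ended both calls of lower MRPL genes. Then 42 MRPL and 26 MRPS genes rose and only MRPS6 fell, where 30.0% of all tested genes were called higher and 26.9% lower. The medians were 0.42 for the MRPL and 0.48 for the MRPS genes, against 0.02 over all tested genes. MRPL12 rose by 0.81 and MRPL36 by 0.93 on the log2 scale in that fit; MRPL36 is a small zinc-binding protein of the large subunit.

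The other genes of the mitochondrial translation system were read from lists. Their counts are to be read beside the shares over all tested genes. These were 38.3% higher and 28.0% lower with SFN+5-FU, and 27.5% higher and 22.5% lower with SFN. Of 5 mitoribosome subunits with other symbols, 4 rose with SFN+5-FU and 4 with SFN. AURKAIP1, a small-subunit protein, had FPKM of 94.4, 95.9 and 106.9 with SFN+5-FU, 94.4, 102.3 and 91.4 with SFN, and 59.1, 59.0 and 63.1 in the control. DAP3, a GTP-binding small-subunit protein, had 28.8, 29.3 and 27.9 FPKM with SFN+5-FU, 26.0, 26.6 and 26.8 with SFN, and 17.5, 18.1 and 18.3 in the control. For both genes the treated libraries did not overlap the controls. PTCD3, a pentatricopeptide repeat protein, was not called, with log2 fold changes of -0.25 with SFN+5-FU and 0.14 with SFN. Without SFN replicate 2 it was called lower with SFN+5-FU, at an unchanged -0.25 (limma adjusted p = 0.0028), and higher with SFN, at 0.29 (limma adjusted p = 0.0036).

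Of 28 genes for mitoribosome assembly and rRNA modification, 21 rose and 1 fell with SFN+5-FU, and 18 rose and 1 fell with SFN, with medians of 0.49 and 0.43. MRM1, which methylates the large mitochondrial rRNA, had 25.6, 23.9 and 22.6 FPKM with SFN+5-FU, 20.2, 24.6 and 20.02 with SFN, and 8.90, 9.44 and 9.29 in the control, a log2 fold change of 1.29 with SFN+5-FU and 1.14 with SFN. GTPBP10, a GTPase of large-subunit assembly, rose by 1.13 with SFN+5-FU and 0.94 with SFN on the log2 scale. NOA1, another GTPase of assembly, was the 1 that fell in both. Of 18 translation factors, 11 rose and 1 fell with SFN+5-FU, and 11 rose and none fell with SFN. Among them were TACO1, the activator of translation of cytochrome c oxidase subunit 1, at 0.95 with SFN+5-FU and 0.70 with SFN, and MTIF2, the initiation factor, at 0.81 and 0.89.

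Of 21 genes for mitochondrial transcription and RNA processing, 13 rose and 1 fell with SFN+5-FU, and 15 rose and 1 fell with SFN. TFB2M, the factor that opens mitochondrial promoters, had FPKM of 21.6, 22.0 and 19.99 with SFN+5-FU, 12.4, 21.2 and 15.4 with SFN, and 7.79, 7.61 and 8.42 in the control, with SFN replicate 2 beside the SFN+5-FU libraries. Of 9 textbook regulators of nuclear genes for mitochondria, PPARGC1A and PPARGC1B were under the filter, and of the other 7, 5 rose with SFN+5-FU and 3 with SFN. MYC, a transcription factor that drives ribosome and mitochondrial genes, had FPKM of 96.3, 92.8 and 88.5 with SFN+5-FU, 92.4, 91.8 and 97.1 with SFN, and 46.5, 49.1 and 44.3 in the control. PPRC1, a coactivator related to PPARGC1A, rose by 1.38 with SFN+5-FU and 1.09 with SFN on the log2 scale. The transcription factors NRF1 and YY1 were not called in either comparison, but without SFN replicate 2 NRF1 was called higher with SFN, at 0.33 (limma adjusted p = 0.0095).

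The mRNAs that the mitoribosome translates did not rise with the genes of its subunits in the fit of all libraries. Of 13 mitochondrially encoded mRNAs, 11 fell with SFN+5-FU and 2 with SFN, none rose, and the medians were -0.49 with SFN+5-FU and -0.15 with SFN. With SFN+5-FU 84.6% of them fell, against 28.0% of all tested genes. With SFN 15.4% fell, which was below the 22.5% of all tested genes. MT-CO1 had FPKM of 7534, 6316 and 7514 with SFN+5-FU, 8472, 7837 and 7873 with SFN, and 9531, 9351 and 9559 in the control, so that no treated library reached the controls. MT-ATP6 had a log2 fold change of -0.72 with SFN+5-FU (limma adjusted p = 0.0023) and -0.22 with SFN, the second not called (limma adjusted p = 0.24). Without SFN replicate 2, 12 of the 13 fell with SFN+5-FU and none fell with SFN, where MT-ND3 was called higher, at 0.28 (limma adjusted p = 0.018), and MT-CO1 and MT-CO2 were no longer called (limma adjusted p = 0.054 and 0.075). The fold changes with SFN+5-FU do not include that library, and their median stayed at -0.49. The 2 mitochondrial rRNAs, which carry short poly(A) tails, were not called in either comparison with all libraries. MT-RNR2 had FPKM of 3284, 2796 and 2982 with SFN+5-FU, 1555, 3220 and 1692 with SFN, and 2905, 2915 and 2427 in the control, so that SFN replicate 2 alone of its group lay in the range of the other groups. Without it both rRNAs were called lower with SFN, MT-RNR1 at -0.51 (limma adjusted p = 0.00031) and MT-RNR2 at -0.76 (limma adjusted p = 0.00025). FPKM is a share of a total, and dividing by totals that left out the mitochondrial genes gave MRPL medians of 0.37 with SFN+5-FU and 0.40 with SFN. The medians over all tested genes were then 0.01 with SFN+5-FU and -0.005 with SFN.

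Cytosolic ribosomal protein genes, which belong to another ribosome, had medians near that of all tested genes. Of 81 tested, which include the read-through genes RPL36A-HNRNPH2 and RPS10-NUDT3, 25 rose and 11 fell with SFN+5-FU, or 30.9% and 13.6%, against 38.3% and 28.0% of all tested genes. With SFN 15 rose and 7 fell, or 18.5% and 8.64%, against 27.5% and 22.5% of all tested genes. The medians were 0.05 with SFN+5-FU and 0.03 with SFN. Among the called genes RPS26 rose most, by 0.95 with SFN+5-FU and 0.83 with SFN on the log2 scale. RPL3 fell most of the called genes, with log2 fold changes of -1.32 with SFN+5-FU and -0.68 with SFN. Its FPKM with SFN was 228, 120 and 207, so replicate 2 lay far below the other SFN libraries and deepened that value. The read-through gene RPL36A-HNRNPH2 stood lower with SFN, at -1.51, but was not called. Many of these genes have near-identical processed copies, so their FPKM can be divided in unknown ways.

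**Figure D4:**
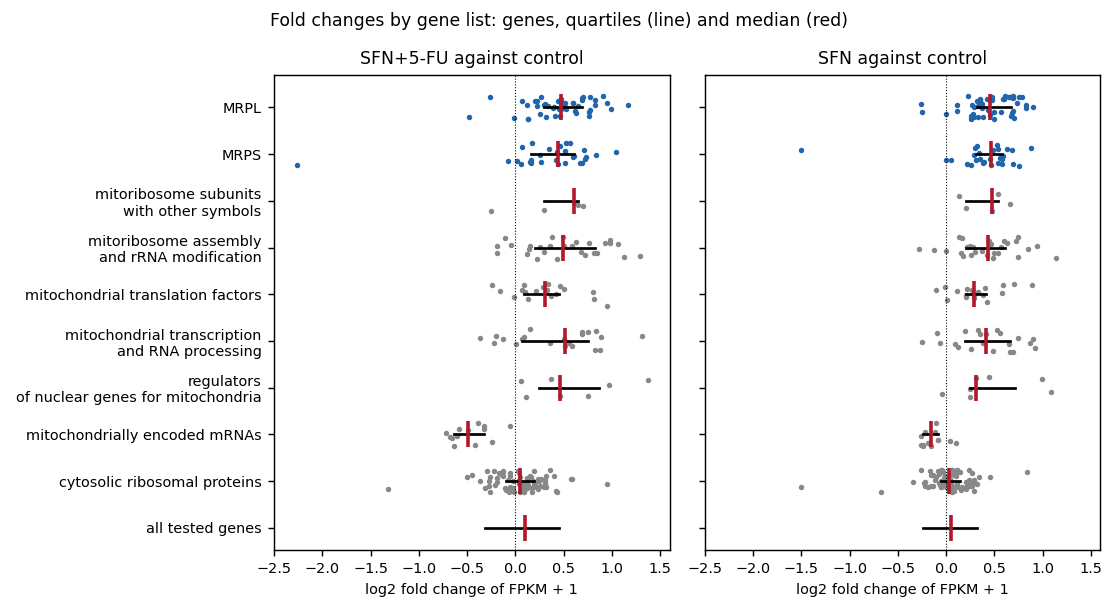
Log2 fold change of FPKM + 1 for each gene of each list, SFN+5-FU against control at the left and SFN against control at the right; points are genes, black lines span the quartiles and red marks are medians, and all tested genes are shown without points. The MRPL and MRPS lists have medians of 0.44 to 0.47, the mitochondrially encoded mRNAs have medians below 0, and the cytosolic ribosomal proteins centre near the median of all genes.

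Promoter windows in RefSeq were found for 70 of the 78 genes. They were searched on both strands for 4 exact motifs, CCGGAAGT of ETS factors, AAGATGGCG of YY1, GCGCATGCG of NRF1 and the E-box CACGTG, none of which contains another. The YY1 letters stood in 13 of 70 windows (18.6%), against 4.34% of the windows of 8874 tested protein-coding genes and 2.74% of all 15843. The ETS letters stood in 15.7% of the members' windows, against 9.66% of those of tested genes, and the NRF1 and E-box letters in 4.29 and 10%, against 3.89 and 10.5%. In the windows printed above, MRPL47 holds the ETS letters and MRPL46 the YY1 letters, and MRPS11, MRPS6 and MRPL48 hold none of the 4.

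Most genes rose whether or not their window held a motif. Over all tested genes 38.3% were called higher with SFN+5-FU and 27.5% with SFN. All 13 genes with the YY1 letters rose in both comparisons. In each comparison 10 of 11 with the ETS letters, 6 of 7 with the E-box and all 3 with the NRF1 letters rose. With SFN+5-FU the medians were 0.51 for genes with the YY1 letters and 0.44 for those without. With SFN they were 0.53 and 0.43. For the ETS letters they were 0.60 and 0.44 with SFN+5-FU, and 0.59 and 0.45 with SFN. The E-box went the other way, at 0.44 and 0.47 with SFN+5-FU and 0.44 and 0.46 with SFN. The 3 genes with the NRF1 letters had medians of 0.70 with SFN+5-FU and 0.50 with SFN, against 0.46 without in each comparison. These differences were not tested. Of the 57 genes without the YY1 letters 43 rose with SFN+5-FU and 47 with SFN, and of the 59 without the ETS letters 46 rose with SFN+5-FU and 50 with SFN. The windows of 13 of 70 genes (18.6%) overlapped that of a gene on the opposite strand, against 9.39% of all protein-coding windows. The latter include genes not expressed here, and the share among tested genes was not counted. Among the overlapping pairs are MRPL49 with FAU, MRPL18 with TCP1, MRPL32 with PSMA2 and MRPS12 with SARS2. A match to letters is a description of the sequence and shows no binding.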

How the data were processed

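The authors deposited one FPKM value per gene and library, to 2 decimals. The submitters' processing notes name fastp, StringTie and edgeR without versions. For the aligner, the build and the annotation, the entry is: not given in the sources used here. Libraries were made from poly(A) RNA with dUTP strand marking and read as pairs, per the labels' protocols. The replicates are biological per the series' design text. Library totals cannot be had from FPKM, so no counting interval is given. The FPKM of a library summed to between 259184 and 272235.

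A name entry was found for 41002 of 41041 identifiers and a symbol for 29784. The filter kept genes whose FPKM averaged 1 or more. All 9 libraries entered 1 limma fit with a mean-variance trend on log2(FPKM + 1), with 6 residual and 3.2 prior degrees of freedom, 3 two-sided contrasts, and Benjamini-Hochberg adjustment over 12662 genes within each contrast. The fit was tested on simulated data. The members, the comparison lists and the tests were chosen with earlier results of these data known. Genes are named by rank of change among the MRPL and among the MRPS genes in each comparison, by highest and lowest level, and from lists. MRPL1, MRPL53, MRPL54, SLC5A3, FAU, CCDC142, CD68, MT-ND3, MYC, TFB2M, NOA1, NRF1 and YY1 are named partly for values seen, and so is the MRPL46 window. Alternatives changed the filter, the pseudocount, the scaling, the libraries in the fit, library weights, a replicate block and a correction for GC content and length (GENCODE release 29). Replicate numbers were not used as pairs, since deviations from the group means correlated above 0.1 in only 1 of 9 pairs with the same number. Promoter sequences are from RefSeq. R 4.3.3, limma 3.58.1 and Python 3.11.15 with matplotlib 3.10.9 and pandas 2.3.3 were used.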

Additional observations from a re-analysis of the deposited data

How the results depend on the processing

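For SFN+5-FU against control, MRPL and MRPS median log2 fold changes were 0.503 and 0.521 with a pseudocount of 0.1, 0.395 and 0.306 with 5, 0.362 and 0.345 with median-of-ratios scaling, 0.366 and 0.332 with quantile normalization, 0.369 and 0.350 with totals without mitochondrial genes, and 0.344 and 0.252 with the GC and length correction. For SFN against control they were 0.366 and 0.365 with a pseudocount of 5, 0.397 and 0.395, 0.372 and 0.378, and 0.396 and 0.393 under those 3 scalings, and 0.373 and 0.329 with the correction. The median over all tested genes moved too. With SFN+5-FU it was 0.097 as reported and 0.004, 0.047 and 0.01 under the 3 scalings. With SFN it was 0.053 as reported and -0.004, 0.036 and -0.005 under them. With a filter of mean FPKM 5, 4903 and 3888 of 6939 genes were called in these comparisons. Higher calls numbered 3189 with SFN+5-FU and 2489 with SFN, and lower calls 1714 and 1399. The medians over the 6939 genes were 0.175 with SFN+5-FU and 0.12 with SFN, above those as reported.

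MRPL genes called lower numbered 1 with SFN+5-FU and 0 with SFN without a filter; with SFN they were 0 in a fit of the 6 libraries compared and 1 with the replicate block. Leaving out 1 library gave MRPL medians of 0.462 to 0.494 and MRPS medians of 0.443 to 0.483 with SFN+5-FU against control, with 1 to 2 MRPL genes called lower, and MRPL medians of 0.420 to 0.504 with SFN against control, with 0 to 2. Between SFN+5-FU and SFN it called 0 to 12 MRPL genes higher and 0 to 14 lower, 0 to 2 MRPS genes higher and 0 to 8 lower, and 0 to 6478 genes in all, the highest without SFN replicate 2.

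Between SFN+5-FU and SFN, the MRPL median was -0.021, -0.036 and -0.013 under the 3 scalings and -0.044 with the correction. Library weights called 15 MRPL genes higher and 12 lower, 5 MRPS genes higher and 8 lower, and 7432 genes in all (4225 higher and 3207 lower). The 6 libraries compared and the replicate block called 0 genes. The replicate numbers pair no samples by the check made (correlations -0.143 to 0.107). Apart from MRPL genes called lower with SFN, which went from 2 to 1, the block otherwise changed no count by over 1.5 times. It ended the calls of MRPL41 and MRPS2 with SFN+5-FU and of MRPL44 and MRPL48 with SFN.

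Some log2 fold changes of named genes changed sign, nearly all of them uncalled values near 0; the called rises of MRPS36 are the exception. For SFN+5-FU against control these were MRPS27 (-0.018) with median-of-ratios scaling, MRPS27 (-0.012) with totals without mitochondrial genes, MRPL44 (-0.114), MRPS27 (-0.026), MRPS36 (-0.01) with GC and length correction. For SFN against control these were MRPL41 (-0.024) with quantile normalization, MRPL41 (-0.018) with library weights, MRPS36 (-0.042) with GC and length correction. For SFN+5-FU against SFN these were MRPS23 (-0.016), MRPS7 (-0.002) with median-of-ratios scaling, MRPS18A (-0.005), MRPS23 (-0.022), MRPS7 (-0.021) with quantile normalization, MRPS23 (-0.008) with totals without mitochondrial genes, MRPL48 (0.116), MRPS34 (0.038) with library weights, MRPS18C (-0.038), MRPS34 (0.007), MRPS7 (-0.011) with GC and length correction. Leaving out 1 library also turned MRPS25 (-0.163 to 0.079) for SFN+5-FU against control, MRPS25 (-0.036 to 0.207) for SFN against control, MRPL20 (-0.027 to 0.02), MRPL46 (-0.04 to 0.022), MRPL48 (-0.085 to 0.079), MRPS18A (-0.027 to 0.098), MRPS23 (-0.009 to 0.042), MRPS33 (-0.076 to 0.071), MRPS34 (-0.032 to 0.021) for SFN+5-FU against SFN. The cause of these changes was not tested. Of up to 20 settings per result, 354 counts and medians kept their value within the limits used. Unknown depth limits the genes of lowest level most.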
